A study of Mus musculus with 6 samples.

Results

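The miR-130 and miR-301 family was examined in whole aortas of EC-Dicerflox and EC-DicerWT mice. Its 4 members on the array, miR-130a, miR-130b, miR-301a and miR-301b, were chosen by name from 596 mouse miRNA assays, and the partner strands of their hairpins were left out. All 4 gave a signal in 6 of 6 samples and passed the filter on low values. MiRNAs were measured with quantitative real-time PCR array cards in 3 mice per genotype. EC-Dicerflox mice were VE-Cadherin-CreERT2 Dicer1flox/flox Apoe-/- and EC-DicerWT littermates were VE-Cadherin-CreERT2 Dicer1WT/WT Apoe-/-, so that both groups carried the Cre transgene and lacked apolipoprotein E. All mice had received tamoxifen (2 mg per 20 g body weight, 5 days), were 6 to 8 weeks old at the start of the diet, and then ate a high-fat diet (21% crude fat, 0.15% cholesterol) for 4 weeks. The labels give male mice and the methods give female mice. The VE-cadherin promoter directs the Cre recombinase to endothelial cells (ECs), whereas the RNA came from the whole aorta with its smooth muscle cells and leukocytes. Fewer cells of a type and less RNA per cell cannot be told apart in such samples. Dicer1 mRNA was not analysed here.

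Dicer is the cytoplasmic RNAse that cuts precursor hairpins into miRNA duplexes, of which a single strand is usually loaded onto an Argonaute protein. The loaded strand finds target mRNAs mainly through its seed, the bases near its 5′ end, and miRNAs with the same seed are grouped as a family because they share many targets. MiR-130a is known in ECs as an angiogenic miRNA that represses the homeobox genes GAX and HOXA5, and the miR-130 and miR-301 family is known in the pulmonary circulation for repressing the nuclear receptor PPARγ. MiR-130b and miR-301b are processed from a common primary transcript, whereas miR-130a and miR-301a each have a locus of their own.

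The sequences of the family are shown because they define its members and because some of them are nearly identical. The deposited table gives no strand for a name without a star, so each name was matched to the 3p strand of RefSeq (GRCm38.p6), and 3 of the 4 members matched a mature entry. Capitals mark the seed (bases 2 to 8).
miR-130a: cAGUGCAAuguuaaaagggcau
miR-130b: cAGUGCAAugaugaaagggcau
miR-301a: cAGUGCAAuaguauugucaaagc
All 3 had the seed AGUGCAA, which 7 of 1679 mature mouse miRNAs of the RefSeq table carry. Compared position by position from the 5′ end, miR-130a and miR-130b were identical at 20 of 22 positions, whereas miR-130a and miR-301a were identical at 12 of 22. The hairpins of all 4 members matched, and those of both miR-301 genes are given with the letters of the seed in capitals.
Mir301 (miR-301a, chr11:87113004-87113089, plus strand): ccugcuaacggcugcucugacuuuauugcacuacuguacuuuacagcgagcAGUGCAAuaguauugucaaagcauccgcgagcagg
Mir301b (miR-301b, chr16:17124400-17124496, minus strand): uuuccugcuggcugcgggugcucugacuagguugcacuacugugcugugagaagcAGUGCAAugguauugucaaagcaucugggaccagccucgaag
The Mir301b hairpin matched mature miR-301a at 22 of 23 positions when both were aligned at the seed, so that the miR-301 assays have targets that differ little, and whether each assay detects only its own target was not tested. Mir130b (chr16:17124061-17124142, minus strand) lies 257 bases from Mir301b, and both overlap the gene 2610318N02Rik. Mir301 overlaps Ska2, and no gene of the RefSeq table overlaps Mir130a (chr2:84741115-84741178, minus strand).

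The CT is the PCR cycle at which the fluorescence of an assay crosses its threshold. A higher CT means less RNA, 1 cycle is ideally a doubling of the product, and 40 stands for no signal. EC-Dicerflox replicate 3 stood apart from the other samples. It had 375 miRNAs with a CT under 40, against 402 to 415 in the other samples, and a median CT of 28.2 over the 350 miRNAs with a signal in all samples, against 26.4 to 27.5.

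MiR-130a had CT values of 23.1, 22.7 and 24.5 in EC-Dicerflox replicates 1, 2 and 3, and of 22.9, 23.3 and 23.6 in EC-DicerWT replicates 1, 2 and 3. MiR-301b had CT values of 23.5, 23.2 and 24.7 in EC-Dicerflox and of 23.0, 23.0 and 23.9 in EC-DicerWT mice. In both miRNAs the highest CT was that of EC-Dicerflox replicate 3, and the groups overlapped. MiR-301a had CT values of 24.0, 23.5 and 24.4 in EC-Dicerflox and of 23.4, 23.3 and 23.6 in EC-DicerWT mice. Its CT ranged over only 1.05 cycles across the 6 samples, a range smaller than that of all but 2.86% of the 350 miRNAs, whereas 44.0% had a smaller SD once expressed relative to U6 and snoRNA135. MiR-130b had CT values of 26.8, 26.3 and 28.2 in EC-Dicerflox and of 26.2, 26.9 and 28.4 in EC-DicerWT mice. It had the highest CT of the family in every sample, and replicate 3 had the highest value in each group.

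**Figure D1:**
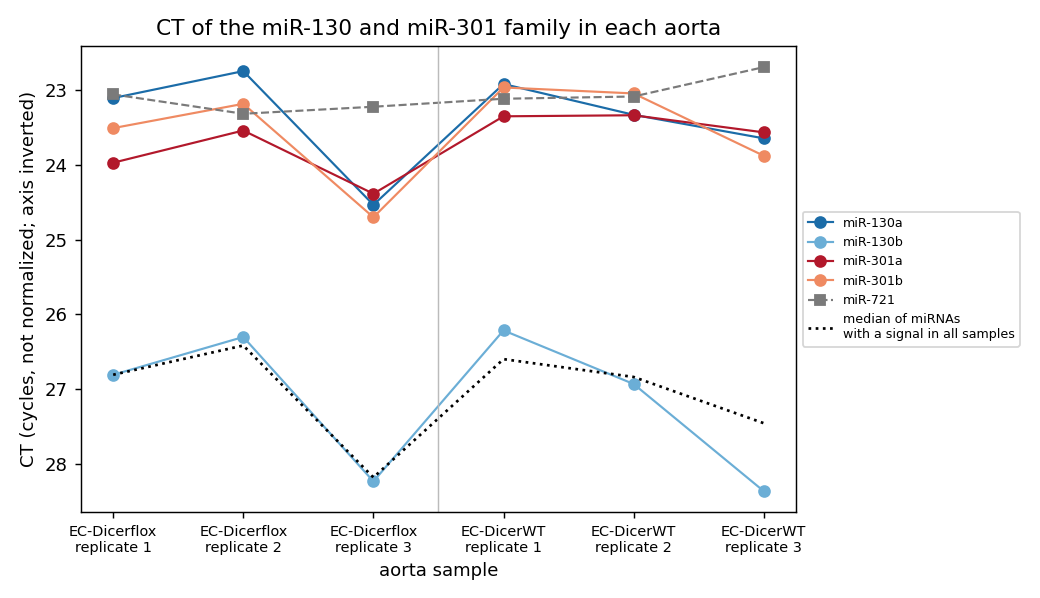
CT in cycles (vertical axis, inverted so that more RNA is higher) of the 4 family members and of miR-721 in each of the 6 aortas, with the median of the 350 miRNAs that had a signal in all samples as a dotted line. MiR-130b lies near the dotted line except in EC-DicerWT replicate 3, and the other members lie between 22.7 and 24.7 cycles.

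By mean CT, the order was miR-130a (23.4), miR-301b (23.5), miR-301a (23.7) and miR-130b (27.1), which placed them at ranks 85, 87, 93 and 174 of 350 from the lowest CT. The 3 lowest did not differ beyond their spread. The CT of miR-301b minus that of miR-130a ranged from -0.286 to 0.438 cycles over the samples, and the CT of miR-301b minus that of miR-301a from -0.463 to 0.315 cycles. The CT of miR-130b exceeded that of miR-130a by 3.30 to 4.72 cycles in the 6 samples. CT values of different assays also depend on the efficiency of each assay, so that this order is one of CT and not of copy numbers.

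To determine whether the family differed between the genotypes, levels were expressed as the mean CT of U6 and snoRNA135 in a sample minus the CT of the miRNA, in log2 units, so that a higher level means more RNA. MiR-301a and miR-301b had lower mean levels in EC-Dicerflox than in EC-DicerWT mice, by 0.40 and 0.35 log2 units, miR-130a was almost equal in both groups, and miR-130b had a higher mean level in EC-Dicerflox mice. No member passed this test: 0 of 4 had an unadjusted limma p-value under 0.05, as a lower level had in 1.95% and a level changed in either direction in 3.04% of the 461 miRNAs tested. The members' limma p-values, adjusted after Benjamini and Hochberg over the 461 miRNAs, were 0.923 or higher, and 0 of the 461 passed an adjusted p-value of 0.05, whereas 14 had an unadjusted limma p-value under 0.05. The count past the adjusted threshold was 2 of 456 miRNAs without EC-Dicerflox replicate 1 and 1 of 458 without EC-Dicerflox replicate 3, and no member was among them. The median log2 fold change of the 4 members was -0.18, compared with 0.10 for the 350 miRNAs with a signal in all samples, and 3 of 4 members had an estimate below 0, as had 43.7% of the 350 and 45.6% of the 461 miRNAs.

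MiR-301b had levels of -4.62, -4.48 and -4.48 in EC-Dicerflox replicates 1, 2 and 3, and of -4.15, -4.10 and -4.27 in EC-DicerWT replicates 1, 2 and 3. It was the only member whose groups did not overlap, with all 3 EC-Dicerflox samples below every EC-DicerWT sample (two-sided exact permutation p = 0.1, which is the lowest value 3 mice against 3 can give). Such a separation was found in 20 of the 461 miRNAs (4.34%), and in either direction in 10.4%, against 1 of 4 members. The log2 fold change was -0.35 with a 95% interval of -0.91 to 0.21 and an unadjusted limma p-value of 0.171. The SD within the groups was 0.081 (EC-Dicerflox, n = 3) and 0.087 (EC-DicerWT, n = 3) log2 units. With an ordinary linear model, which takes the spread from each miRNA alone, the unadjusted p-value was 0.00697, and 2.17% of the 461 miRNAs were lower and 5.21% changed in either direction at a p-value under 0.05 with that model. Without EC-Dicerflox replicate 3, the log2 fold change of miR-301b was -0.37 (unadjusted limma p-value of 0.222).

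MiR-301a had levels of -5.08, -4.84 and -4.16 in EC-Dicerflox and of -4.54, -4.39 and -3.96 in EC-DicerWT replicates 1, 2 and 3. The groups overlapped because EC-Dicerflox replicate 3 lay above 2 of 3 EC-DicerWT samples (exact permutation test, two-sided p = 0.3). The log2 fold change was -0.40 with a 95% interval of -1.29 to 0.50 and an unadjusted limma p-value of 0.310. Without EC-Dicerflox replicate 3 it was -0.66 (unadjusted limma p-value of 0.105), and without EC-Dicerflox replicate 1 it was -0.20 (unadjusted limma p-value of 0.639). In mice of the same replicate number, EC-Dicerflox minus EC-DicerWT was -0.54, -0.44 and -0.20 log2 units for miR-301a and -0.47, -0.38 and -0.21 for miR-301b for numbers 1, 2 and 3. Both were lower in 3 of 3 such pairs (two-sided exact sign-flip permutation p = 0.25, the lowest possible with 3 pairs). For miR-301b any pairing would give this, because its groups did not overlap, and no label states the pairing. The share of all miRNAs lower in 3 of 3 pairs was not computed. Limma fitted with a block for each number gave unadjusted p-values of 0.191 for miR-301a and 0.227 for miR-301b.

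MiR-130a had levels of -4.22, -4.04 and -4.31 in EC-Dicerflox and of -4.11, -4.39 and -4.04 in EC-DicerWT replicates 1, 2 and 3. The groups covered nearly the same range (exact permutation test, two-sided p = 0.9). The log2 fold change was -0.013 with a 95% interval of -0.62 to 0.60 and an unadjusted limma p-value of 0.960, and it was 0.048 without EC-Dicerflox replicate 3. The level of miR-130a was among the steadiest on the array, with an SD of 0.15 log2 units over the 6 samples, and 1.14% of the 350 miRNAs had a smaller SD. This held relative to U6 and snoRNA135, since 30.0% of the miRNAs had a smaller range than miR-130a in raw CT.

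MiR-130b had levels of -7.92, -7.60 and -8.01 in EC-Dicerflox and of -7.41, -7.99 and -8.76 in EC-DicerWT replicates 1, 2 and 3. The EC-Dicerflox values lay within the wider range of the EC-DicerWT values (exact permutation test, two-sided p = 0.8). The log2 fold change was 0.21 with a 95% interval of -0.84 to 1.26 and an unadjusted limma p-value of 0.639, and it was 0.29 without EC-Dicerflox replicate 3. The direction of miR-130b rested on EC-DicerWT replicate 3, since the log2 fold change was -0.15 without it (unadjusted limma p-value of 0.680).

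**Figure D2:**
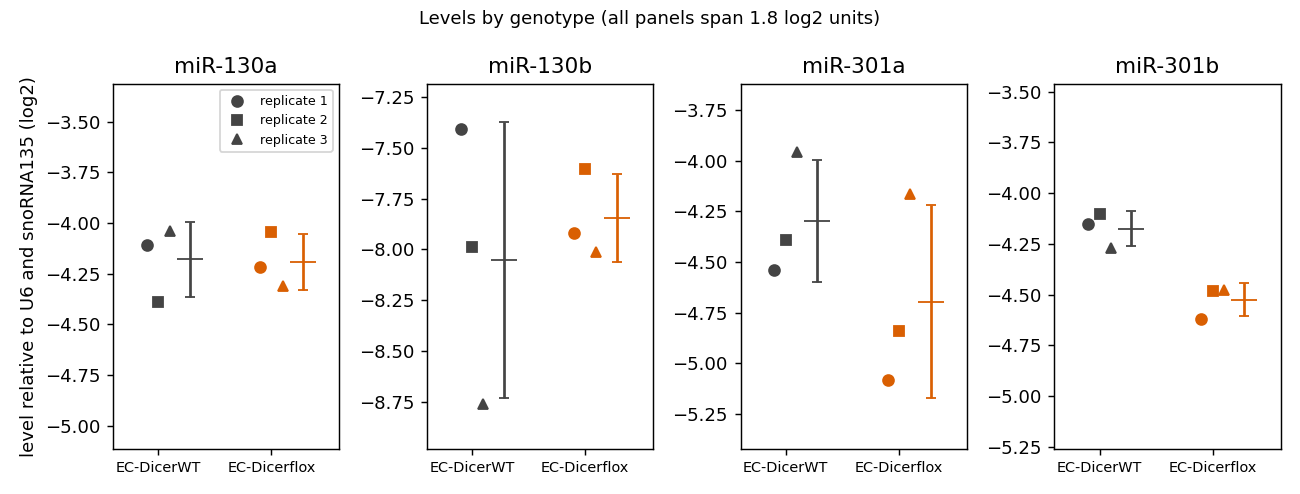
Level of each member in log2 units relative to U6 and snoRNA135 (vertical axis) by genotype, with a marker shape for each replicate number, and the mean and SD of 3 samples as a bar beside the points. The groups are apart for miR-301b only, and the lowest miR-130b value is that of EC-DicerWT replicate 3.

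The choice of the reference shifted the estimates of all members by the same amount. Over the 350 miRNAs, the median log2 fold change was 0.10 with U6 and snoRNA135, 0.19 with U6 alone and -0.058 with snoRNA202 alone. Relative to this median, which removes a shift common to both cards, miR-301a was at -0.50 and miR-301b at -0.45 log2 units, miR-130a at -0.12 and miR-130b at 0.10. With the controls of each card as its own reference, where the cards shift separately, miR-301a was at -0.55 and miR-301b at -0.50 relative to a median of 0.094. Of the 350 miRNAs other than the members, 20.5% lay below the log2 fold change of miR-301a and 21.7% below that of miR-301b. Over 10 references, including the raw CT, the estimates of miR-301a and miR-301b were below 0 with each. MiR-301b separated the groups with 6 of the 10 references and overlapped with U6 alone, snoRNA135 alone, the mean of all miRNAs and the raw CT. With these 6 references, 3.9% to 6.94% of the 461 miRNAs were separated in this direction. MiR-301a separated them with U6 alone only, as 3.04% of the 461 miRNAs did. MiR-130a and miR-130b separated them with none. The smallest unadjusted limma p-value of miR-301b over these references was 0.0548, with snoRNA202 alone, where the log2 fold change was -0.51 with a 95% interval of -1.04 to 0.015. Relative to U6 and snoRNA135, snoRNA202 itself was higher in EC-Dicerflox mice by 0.161 log2 units, without overlap (exact permutation test, two-sided p = 0.1). This shift is part of the log2 fold change with snoRNA202 alone.

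**Figure D3:**
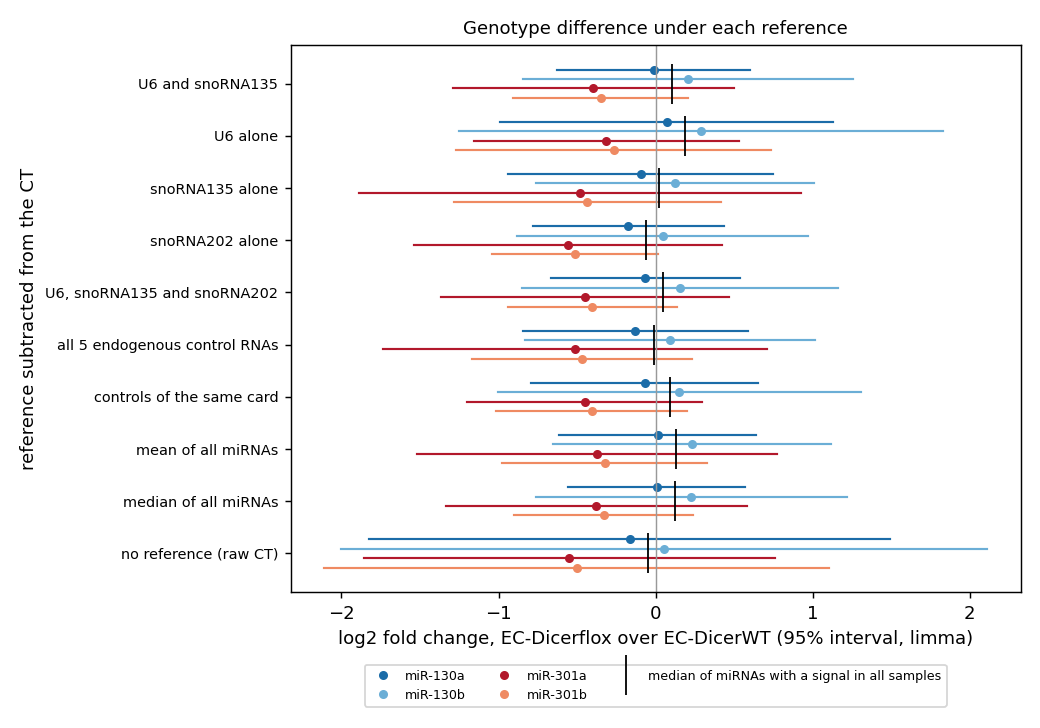
Log2 fold change of the 4 members in EC-Dicerflox over EC-DicerWT mice (horizontal axis) under 10 references for the CT (rows), with 95% limma intervals as lines and the median of the 350 miRNAs as a vertical tick. Both miR-301 points lie left of 0 and of the tick with each reference, and every interval includes 0.

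The members were then compared with each other within each sample, as differences between CT values that need no control RNA. Members were grouped by name (miR-130 or miR-301) and by transcript (shared or separate), and neither contrast was planned. The grouping by name joins miR-301a and miR-301b, already described as lower, so that its value in part restates that difference. The mean CT of miR-301a and miR-301b minus that of miR-130a and miR-130b was higher in EC-Dicerflox mice by 0.471 cycles (-1.41 ± 0.377 against -1.88 ± 0.441, SD, n = 3 each), whereas the mean CT of miR-130b and miR-301b minus that of miR-130a and miR-301a had a difference of -0.133 cycles (1.74 ± 0.230 against 1.88 ± 0.564, SD, n = 3 each). Both contrasts overlapped between the groups and are given without a test. Without EC-DicerWT replicate 3, a comparison added after seeing the data, they were 0.268 and 0.187 cycles, so that the distance between them rested on this sample.

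MiR-130b and miR-301b, which share a transcript, did not keep a constant difference. The CT of miR-301b minus that of miR-130b was -3.30, -3.12 and -3.53 cycles in EC-Dicerflox and -3.25, -3.89 and -4.49 cycles in EC-DicerWT replicates 1, 2 and 3. The groups overlapped, since the smallest EC-DicerWT difference lay among the EC-Dicerflox values. The group means were apart by 0.557 cycles (exact permutation test, two-sided p = 0.3), and 59.8% of the 50403 pairs of miRNAs whose CT was under 35 in each sample had a smaller difference between the groups. Without EC-DicerWT replicate 3 the difference was 0.251 cycles. In mice of the same replicate number the difference was -0.050, 0.768 and 0.954 cycles, so that number 1 did not show it.

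MiR-301a and miR-301b, which differ little in sequence and have separate loci, had nearly the same mean difference in both genotypes. The CT of miR-301b minus that of miR-301a was -0.463, -0.357 and 0.315 cycles in EC-Dicerflox and -0.386, -0.292 and 0.313 cycles in EC-DicerWT replicates 1, 2 and 3. The group means differed by -0.047 cycles (exact permutation test, two-sided p = 0.8), and 6.19% of all pairs had a smaller difference. This group difference was -0.288 cycles without EC-Dicerflox replicate 3 and 0.171 cycles without EC-DicerWT replicate 3, so its direction was not fixed. The replicates of number 3 had positive differences in both genotypes, whereas the other 4 samples had negative ones.

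Of the other pairs, miR-301b minus miR-130a was 0.402, 0.438 and 0.166 cycles in EC-Dicerflox and 0.046, -0.286 and 0.233 cycles in EC-DicerWT mice. Only EC-Dicerflox replicate 3 lay within the EC-DicerWT range. The group means were apart by 0.338 cycles (exact permutation test, two-sided p = 0.2). The differences between the groups were 0.384 cycles for miR-301a minus miR-130a (p = 0.4, exact permutation test), 0.604 cycles for miR-301a minus miR-130b (p = 0.5, exact) and -0.220 cycles for miR-130b minus miR-130a (p = 0.9, exact). Without EC-DicerWT replicate 3, the last 2 were 0.0805 and 0.204 cycles. The difference of miR-301a minus miR-130a was 0.204 cycles without EC-Dicerflox replicate 1 and 0.711 cycles without EC-Dicerflox replicate 3. In the 6 pairs compared, no test could go below 0.1, and a p-value above the threshold does not show that the members changed alike.

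**Figure D4:**
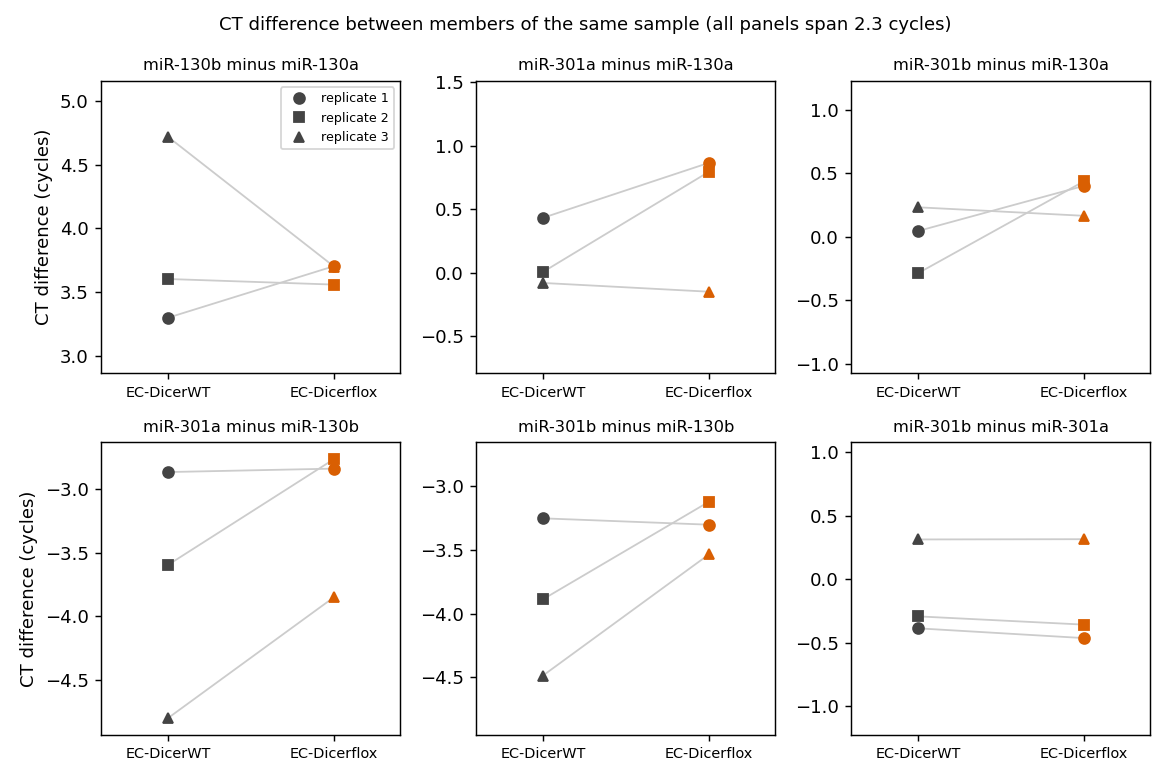
CT difference in cycles between 2 members of the same sample (vertical axis) for the 6 pairs of members, by genotype, with grey lines joining samples of the same replicate number. The difference between miR-301b and miR-301a is nearly level between the genotypes, and that between miR-301b and miR-130b is higher in EC-Dicerflox mice for replicate numbers 2 and 3.

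How closely the members tracked each other over the samples was described by the SD of the within-sample CT difference over the 6 samples, for the 318 miRNAs whose CT was under 35 in each sample. The median over all pairs was 0.735 cycles. MiR-130a and miR-301b had the smallest SD within the family (0.266 cycles), and 5.21% of all pairs had a smaller one. The SD was 0.360 cycles for miR-301a and miR-301b, 0.450 cycles for miR-130a and miR-301a, and 0.492 cycles for miR-130a and miR-130b. It was 0.513 cycles for miR-130b and miR-301b, and 28.7% of all pairs had a smaller one. MiR-130b and miR-301a were farthest apart (0.799 cycles), with more than the median of all pairs. The median SD of each member with all other miRNAs was 0.443 cycles for miR-130a, 0.574 for miR-130b, 0.665 for miR-301a and 0.501 for miR-301b. The SD with miR-130b was above the median of each of the other 3 members. Against the median of miR-130b itself, its SD with miR-130a and with miR-301b was below, and that with miR-301a above. The values of miR-130b rested on EC-DicerWT replicate 3. Without this sample, left out after seeing the data, the SD of miR-130b was 0.166 cycles with miR-130a, now the closest pair, 0.302 with miR-301b and 0.503 with miR-301a, each below the median of the other member. The SD of miR-301b was then 0.295 cycles with miR-130a and 0.314 with miR-301a, so that the co-transcribed pair and these pairs were about equally close.

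Each member had closer companions outside the family, but these were the closest picked from the 318 miRNAs. Set against so few members, closer ones were likely in any case, so they do not show that the family tracked poorly. By rank of the SD among all other miRNAs, the closest member was miR-301b for miR-130a (rank 41) and for miR-301a (rank 21). It was miR-130a for miR-130b (rank 114) and for miR-301b (rank 20). MiR-301b was tracked most closely by miR-103 (SD of 0.125 cycles, CT difference ranging over 0.334 cycles), followed by miR-324-5p (0.163 cycles) and miR-34c* (0.179 cycles). MiR-103, which has an unrelated seed and is known for regulating insulin sensitivity, had a log2 fold change of -0.15 (unadjusted limma p-value of 0.533). MiR-130b was tracked most closely by miR-15b (0.140 cycles), miR-93 (0.165 cycles) and miR-25 (0.176 cycles), of which miR-93 and miR-25 come from a common primary transcript, the miR-106b-25 cluster. MiR-130a was tracked most closely by miR-212 (0.118 cycles), miR-224 (0.158 cycles) and miR-340-3p (0.158 cycles). MiR-301a was tracked most closely by miR-487b (0.156 cycles), miR-495 (0.236 cycles) and miR-1937c (0.240 cycles), the first 2 being miRNAs of the imprinted Dlk1-Dio3 region. The points of each comparison share 6 samples and their RNA yield, and most share the array card, so that these values describe this set of samples.

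**Figure D5:**
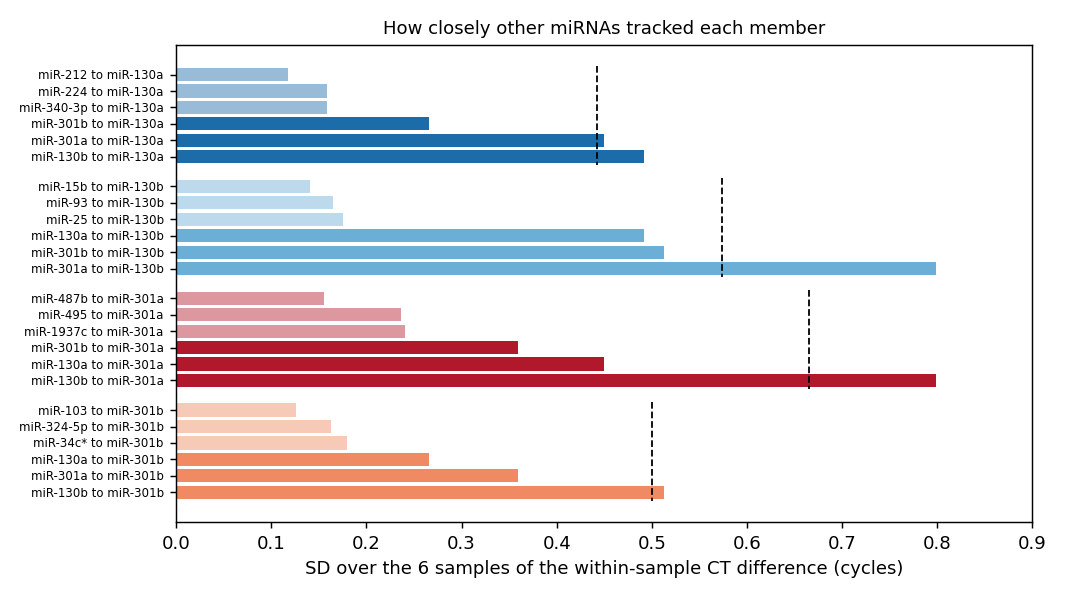
SD over the 6 samples of the within-sample CT difference in cycles (horizontal axis) between each member and its 3 closest miRNAs outside the family (pale bars) and the other members (full bars), with the median over all other miRNAs as a dashed line. MiR-103 is the closest to miR-301b, and miR-130b lies beyond the median of miR-130a, of miR-301a and of miR-301b, as miR-301a does for miR-130a and for miR-130b, in values over all 6 samples that for miR-130b rest on EC-DicerWT replicate 3.

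Of the partner strands of these hairpins, miR-130b* is on the array. Its sequence is shown because it comes from the same hairpin as miR-130b but has another seed (capitals).
miR-130b*: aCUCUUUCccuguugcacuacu
It had CT values of 32.3, 30.1 and 32.3 in EC-Dicerflox and of 30.1, 30.5 and 31.9 in EC-DicerWT replicates 1, 2 and 3, so that it was several cycles above miR-130b in each sample. EC-Dicerflox mice had a log2 fold change of -0.61 for miR-130b* (limma, standard error 0.60, unadjusted p-value of 0.354). The value rested on EC-Dicerflox replicate 1, since it was -0.075 without it, a comparison added after seeing the data. The levels overlapped between the groups (exact permutation test, two-sided p = 0.6).

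A further miRNA with the family's seed, miR-721, is processed from a hairpin that overlaps Cux1.
miR-721: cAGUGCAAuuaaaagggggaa
Its CT was 23.1, 23.3 and 23.2 in EC-Dicerflox and 23.1, 23.1 and 22.7 in EC-DicerWT replicates 1, 2 and 3. These values did not follow the samples' median CT, since EC-Dicerflox replicate 3, the sample with the highest median, was not the highest here. MiR-721 and miR-130b* were not on the card of the 4 members but on the other one, as inferred from the assay numbers. MiR-721 had a log2 fold change of -0.083 (limma, standard error 0.57, unadjusted p-value of 0.891), which ranged from -0.55 to 0.30 when a single sample was left out.

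Part of the seed is also present in miRNAs of other families. MiR-148a, known for repressing the LDL receptor in the liver, miR-148b and miR-152 share the letters CAGUGCA with bases 1 to 7 of miR-130a, and miR-19a and miR-19b, members of the oncogenic cluster that also encodes miR-17, share GUGCAA. An example of each is given with its own seed in capitals.
miR-148a: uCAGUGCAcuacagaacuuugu
miR-19a: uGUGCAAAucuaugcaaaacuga
With miR-130b* and miR-721, 7 such related miRNAs were tested. Of these, 0 had a p-value under 0.05 in limma before adjustment, against 3.04% of the 461 miRNAs in either direction. Their estimates lay below 0 in 3 and above 0 in 4, where 45.6% of the 461 lay below 0, with a median log2 fold change of 0.017. Among them, miR-148a had a log2 fold change of 0.36 (unadjusted limma p-value of 0.224), miR-148b of -0.32 (0.325) and miR-19b of 0.39 (0.318). MiR-454 was not analysed here.

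MiRNAs that mark cell types of the aorta were examined beside these values. The smooth muscle miRNAs miR-143 and miR-145 were abundant in all samples, with lowest CT values of 16.9 and 14.7. Both had estimates above 0, 0 of 2 had a p-value under 0.05, and their summed level was 4.30 to 5.56 log2 units in EC-Dicerflox and 4.23 to 4.83 in EC-DicerWT mice. The endothelial miRNAs miR-126-3p and miR-126-5p had levels above every EC-DicerWT sample in all 3 EC-Dicerflox samples, with log2 fold changes of 0.41 and 0.85 (unadjusted limma p-values of 0.193 and 0.0727), a separation in this direction that 6.07% of the 461 miRNAs had. Their summed level was 1.05 to 1.72 log2 units in EC-Dicerflox and 0.84 to 0.91 in EC-DicerWT mice. Because miR-126 is itself a product of Dicer in the cells targeted by the Cre recombinase, these levels do not measure the EC content. Of 4 leukocyte miRNAs, 3 had estimates below 0 and 1 had a p-value under 0.05, miR-142-5p with a log2 fold change of -0.996 (unadjusted limma p-value of 0.00989, adjusted p-value of 0.923), where the shares over the 461 miRNAs were 45.6% below 0 and 1.95% lower at such a p-value. The summed leukocyte level was -0.89 to -0.23 log2 units in EC-Dicerflox and -0.54 to 0.32 in EC-DicerWT mice. For the erythroid and striated muscle lists, 2 and 4 miRNAs were tested, 0 had a p-value under 0.05, and the summed levels overlapped between the groups. The part of any of these cell types in the lower miR-301 values was not tested.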

How the data were processed

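Total RNA of the aorta was reverse-transcribed and pre-amplified (Megaplex rodent pools) and run on TaqMan array cards, per the methods of the paper. The authors deposited raw CT values, which are on a log2-like scale and not normalized; how thresholds and baselines were set is not given in the sources used here. All 6 columns were matched to samples by name, and 0 columns of values were left unused. The depth of a PCR array is its number of samples, 3 per group, and n is the number of mice. The members, lists and tests were chosen with earlier results of these data known.

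The mean of the 4 CT values of U6 and snoRNA135 on both cards served as reference (the assay numbers differ in style between cards, from which the card was inferred). All 4 members were on the same card, and miR-130b* and miR-721 were on the other one. Group differences were fitted with limma 3.58.1 in R 4.3.3 over 461 miRNA assays (CT below 40 in 1 sample or more) and p-values were adjusted after Benjamini and Hochberg. Single values were compared by exact permutation (20 arrangements, two-sided), computed in Python 3.11.15. The fits were tested on simulated data. The named miRNAs were the members, related miRNAs by strand or seed, and the 3 with the smallest SD of the CT difference to each member (CT under 35 in all samples). The cell type lists were endothelial, smooth muscle, leukocyte, erythroid and striated muscle miRNAs.

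Deviations from the group means correlated in samples of the same replicate number (0.150, 0.224 and 0.431 for numbers 1, 2 and 3, over 350 miRNAs), which passed the limit of 0.1 set for each pair, and the numbers were treated as pairs in an alternative fit. Between different numbers, EC-Dicerflox 1 and EC-DicerWT 2 correlated at 0.285, above the values of numbers 1 and 2, EC-Dicerflox 2 and EC-DicerWT 1 at 0.117, and the 4 combinations with a single number 3 at -0.353 to -0.185. Deviations from a group mean cancel within the group, so these negative values follow from the positive ones and are no separate evidence. The limit of 0.1 was also passed by combinations of different numbers. The correlations set number 3 apart only in this sense and do not tell numbers 1 and 2 from each other, and no label states the pairing. Alternatives concerned the reference, the detection limit, the filter, the estimate of the spread, the pairing and the samples.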

Additional observations from a re-analysis of the deposited data

How the results depend on the processing

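With 17 alternatives that kept all samples, without both samples of number 3, and without each sample in turn, the log2 fold changes of miR-301a and miR-301b stayed below 0. Only the alternatives of the reference and of the samples could move these estimates. Those of the detection limit, the filter, the spread and the pairing left them unchanged, since the members' CT values were all under 35. The log2 fold changes ranged from -0.56 to -0.31 and from -0.51 to -0.27 over the alternatives, and from -0.66 to -0.20 and from -0.40 to -0.30 without a single sample. MiR-301b passed an unadjusted p-value of 0.05 with an ordinary linear model (-0.35, 0.00697) and with that model and the replicate number as a block (-0.35, 0.0441) (these models change the standard error and not the estimate), and not with limma and the replicate block (-0.35, 0.227). The replicate block in limma changed no call of the 4 members. MiR-130a, near 0, was above 0 with U6 alone (0.071), with the mean (0.013) and the median (0.0068) of all miRNAs, and without both samples of number 3 (0.12), and ranged from -0.12 to 0.057 without a single sample. MiR-130b was at -0.064 without both samples of number 3, and ranged from -0.15 to 0.53 without a single sample. Without both samples of number 3, the group difference in CT of miR-130b minus miR-130a was 0.181 cycles. Without a single sample, it ranged from -0.508 to 0.204 cycles (above 0 without EC-DicerWT replicate 3), that of miR-301b minus miR-301a from -0.288 to 0.171 (above 0 without EC-Dicerflox replicate 1 or 2 or EC-DicerWT replicate 3), that of miR-301a minus miR-130a from 0.204 to 0.711, that of miR-301b minus miR-130a from 0.196 to 0.455, that of miR-301a minus miR-130b from 0.0805 to 1.05 and that of miR-301b minus miR-130b from 0.251 to 0.870, both lowest without EC-DicerWT replicate 3 and highest without EC-DicerWT replicate 1. Contrasts by name and by transcript, left without a sample in turn after seeing the data, ranged from 0.268 to 0.705 and from -0.343 to 0.187 cycles, the latter above 0 without EC-DicerWT replicate 3. Over all miRNAs, 9 were lower and 5 higher at an unadjusted limma p-value under 0.05. The count lower was 14 with snoRNA202 alone. The count higher was 3 with U6 alone and with the raw CT, 14 with the ordinary linear model, 12 with that model and the block, and 8 with trend and robust moderation and without both samples of number 3. Without a single sample the counts were 7 to 12 lower and 4 to 10 higher. With 3 mice per group, no exact test could pass 0.05, and the causes of these shifts were not tested.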
